A study of Mus musculus with 3 samples.

Results

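The histone genes of mouse were followed through early reprogramming, as the row names of the count table that begin with Hist1h to Hist4h, H2af, H3f3 or H1f and do not hold -ps. This name rule gave 87 of 50507 rows. Of these, 69 are named as clustered, replication-dependent genes (Hist), 17 are named as variant genes and 1, H3f3aos, is a transcript antisense to H3f3a with 1 count in all libraries. Hist1h2aj and Hist1h2al among the Hist genes, and H2afy3 and H3f3c among the variants, are annotated as pseudogenes. The libraries came from primary mouse embryonic fibroblasts (MEFs) of wild-type BL6 mice that carried a doxycycline-inducible cassette of Oct4, Sox2, Klf4 and c-Myc (tet-STEMCCA) and the rtTA activator, each brought in by lentivirus at a multiplicity of 1, and that were reprogrammed at passage 2. All groups share these transgenes. Reprogramming began on day 0 with a medium of serum, LIF, 2 µg/mL doxycycline, 3 µM chiron (a GSK3 inhibitor), 0.25 µM of an Alk5 inhibitor that blocks TGFb signalling and 50 µg/mL ascorbic acid, so Day00 is the baseline at the start of induction. The untransfected time course, Day00 to Day06, was only replated before induction. The other cells were transfected with 40 nM of pooled siRNAs and harvested after 6 days: 33 siRNA pools against single genes, mostly chromatin regulators, a non-targeting control (nt), and a Mock transfection. There were 3 libraries a condition, 1 in each of 3 sequenced replicates, except 5 for Mock and 2 for siMtf1. The 5 Mock libraries come from the same 3 replicates under repeated column names, and the labels do not say whether the repeats are separate transfections. The cultures hold cells at different stages side by side, since few infected fibroblasts become pluripotent, so that in these bulk libraries fewer cells of a type and less RNA per cell cannot be told apart.

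Histones are the proteins that package DNA. The core histones H2A, H2B, H3 and H4 form the nucleosome and H1 binds the DNA between nucleosomes. Replication-dependent genes sit in clusters and are copied in S phase to supply chromatin for new DNA. Their mRNAs normally end in a stem-loop and not in a poly(A) tail, although some of these genes can also make polyadenylated mRNA. Variant genes mostly lie apart from the clusters, have polyadenylated mRNAs and are expressed through the cell cycle. H2afz encodes H2A.Z, found at promoters and enhancers, H3f3a and H3f3b encode H3.3, deposited outside replication, H2afy encodes macroH2A1, which is enriched in inactive chromatin, and H1f0 encodes the linker histone of slowly dividing cells. CEL-Seq2 copies RNA from an oligo-dT primer and counts each molecule once, near its 3′ end, by a random barcode (UMI), so the values below are CPM, a library's counts scaled to a common total with TMM factors, and were not divided by length.

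The ends of the Hist mRNAs are shown first, because the Hist genes with the most counts differ from the others just before the stem-loop. In the annotated transcript models (GRCm38), a stem-loop was found after the coding sequence of 38 Hist genes and of none of the 17 variant genes. The models used had annotated bases past the stop codon for only 11 of the 17 variants. Among the Hist genes this held for 5 of 6 H1, 13 of 20 H2A, 14 of 18 H2B, 10 of 12 H3 and 12 of 13 H4. In the rest a stem-loop could be missed. Each line below gives the last 14 bases before the stem-loop in lower case and the 16 bases of the stem-loop in capitals, 5′ to 3′ on the strand of the gene. The first 3 are the Hist genes that could be tested, the next ones are other counted members for comparison.
Hist1h2ao: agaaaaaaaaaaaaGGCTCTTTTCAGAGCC
Hist1h2ap: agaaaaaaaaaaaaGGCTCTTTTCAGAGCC
Hist1h2ae: gtaaaaaaaacaaaGGCTCTTTTCAGAGCC
Hist1h2ad: tgtataaaaacaaaGGCTCTTTTCAGAGCC
Hist1h2ab: ttaaccaaaacaaaGGCTCTTTTCAGAGCC
Hist1h1c: ctaacaatccaaaaGGCTCTTTTCAGAGCC
Hist1h4i: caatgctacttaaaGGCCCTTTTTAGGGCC

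The longest run of A in the 40 bases before the stem-loop was 12 bases in Hist1h2ao and Hist1h2ap and 8 bases in Hist1h2ae. In the other 35 genes with a stem-loop it was under 8 bases. The 3 genes with the long runs had 698 to 1734 counts over the 127 libraries and held 45.0% of all Hist counts. The 35 others had a median of 20 counts and at most 345. The 3 genes with long runs are all H2A. The other H2A genes with a stem-loop ran from 0 (Hist2h2aa1) to 345 counts (Hist1h2ad), with 304 in Hist1h2ag and 283 in Hist1h2ab. Over all members of a family the median was 209 counts for H2A, 106.5 for H1, 19 for H4, 10.5 for H3 and 4 for H2B. Family and run length were thus not separated. The division at 8 bases was made after these values were seen and carries no test, and whether reverse transcription began in these runs was not tested. A poly(A) signal (AATAAA) within the last 60 bases of the model was found in 8 of the 38 genes, whose median of 20.5 counts was close to the 24.5 of the 30 without one. Hist1h2ae and Hist1h1c are among the 8. The model of Hist1h1c runs on for 840 bases past the stem-loop, that of Hist1h2ao for 31 and that of Hist1h2ap for 3. Counted anywhere after the coding sequence, the longest run was 15 bases in Hist1h2ac, which had 230 counts, 12 in H3f3b, 11 in Hist1h2be, which had 101 counts, and 6 in H2afz, so that long runs elsewhere did not go with high counts throughout.

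**Figure D1:**
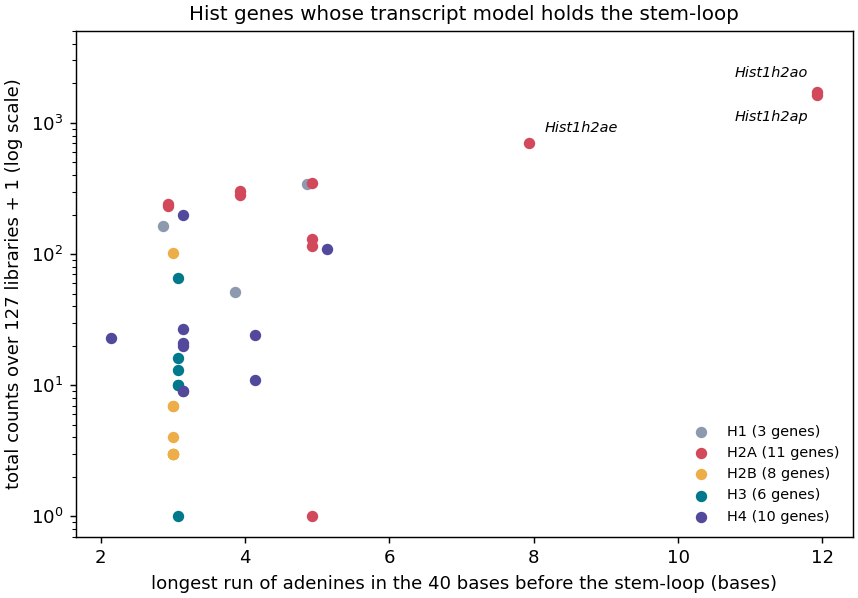
Total counts over 127 libraries plus 1 (log scale) of the 38 Hist genes with an annotated stem-loop, against the longest run of A in the 40 bases before it; each point is a gene, coloured by family. The 3 genes at 8 and 12 bases, all H2A, had 698 to 1734 counts, and the other 35 had 345 or fewer.

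Hist1h2ao lies on chromosome 13 (GRCm38 chr13:21810465-21810944, plus strand) and Hist1h2ap on the same chromosome (chr13:21833026-21833507, minus strand), which holds 56 of the 69 Hist genes. All of these but Hist1h2al lie in the large cluster, and Hist1h2al, annotated as a processed pseudogene, lies far from it (chr13:51202727-51203065, minus strand). Of the other Hist genes, 10 are on chromosome 3, 2 on chromosome 11 and 1 on chromosome 6. H2afz lies on chromosome 3, away from the Hist genes there (chr3:137864487-137866922, plus strand). Promoter windows, 250 bases before to 50 after the annotated start, were matched in RefSeq (GRCm38.p6) for 62 Hist and 15 variant genes. The windows of the 3 genes with the most tested changes are printed with CCAAT or its complement ATTGG in capitals.
Hist1h2ao, chr13:21810117-21810416, plus strand: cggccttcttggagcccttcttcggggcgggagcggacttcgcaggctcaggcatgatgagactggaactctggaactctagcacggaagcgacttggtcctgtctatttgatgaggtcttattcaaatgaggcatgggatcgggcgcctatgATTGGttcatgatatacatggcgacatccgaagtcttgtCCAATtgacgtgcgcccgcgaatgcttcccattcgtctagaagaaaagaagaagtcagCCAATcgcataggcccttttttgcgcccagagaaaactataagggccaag
Hist1h2ap, chr13:21833426-21833725, minus strand: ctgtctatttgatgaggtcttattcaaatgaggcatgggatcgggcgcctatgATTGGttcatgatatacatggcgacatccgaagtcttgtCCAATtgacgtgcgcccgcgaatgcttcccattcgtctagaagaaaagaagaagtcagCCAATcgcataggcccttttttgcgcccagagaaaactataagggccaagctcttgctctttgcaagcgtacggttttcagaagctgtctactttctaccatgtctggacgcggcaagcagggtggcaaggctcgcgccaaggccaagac
H2afz, chr3:137864237-137864536, plus strand: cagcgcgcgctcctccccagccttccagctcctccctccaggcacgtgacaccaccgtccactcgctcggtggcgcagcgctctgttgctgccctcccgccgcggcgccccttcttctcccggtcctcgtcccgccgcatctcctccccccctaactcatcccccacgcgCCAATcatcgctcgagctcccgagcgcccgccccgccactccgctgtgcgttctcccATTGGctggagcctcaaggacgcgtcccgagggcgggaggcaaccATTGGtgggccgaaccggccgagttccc

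Each of the 3 windows holds 3 copies of CCAAT, counted on both strands, and none holds TATAAA or its complement. The Hist1h2ao and Hist1h2ap windows share a stretch of 200 bases that includes all 3 copies. At least 2 copies were found in 71.0% of the Hist and 53.3% of the variant promoters, against 12.0% of 27025 promoters of the same length. All 18 H2A and all 16 H2B promoters that were matched had 2 or more, whereas 1 of 12 H4 promoters did. TATAAA on either strand was in 56.5% of Hist, 6.67% of variant and 14.2% of all promoters. These matches describe letters in a window and not binding.

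The members took 34275 counts, 0.325% of all counts in the 127 libraries, and most of these belonged to 1 gene. H2afz had 18596 counts, between 27 and 426 in each library, which is 54.3% of all member counts and 73.6% of the variant counts. The variant genes together had 25267 counts and the Hist genes 9007. Of the Hist counts, 78.5% were on the 20 H2A genes. The 6 H1 genes had 764 counts, the 13 H4 genes 481, the 12 H3 genes 356 and the 18 H2B genes 332, so the families of the nucleosome were counted very unequally.

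Counts were spread thinly over the rest. H1foo, H2afb1, H2afb2, H2afb3, H2afy3, Hist1h1t, Hist1h2ba, Hist2h2aa1 and Hist2h3c1 had 0 counts, a further 42 members had 1 to 49 counts in all, and 36 had 50 or more. Only 6 passed the filter on low counts and could be tested in the main fit: the variants H2afz, H3f3b (3329 counts) and H2afy (1644 counts), and the H2A genes Hist1h2ao (1734), Hist1h2ap (1620) and Hist1h2ae (698). A gene could pass through the conditions in which it was high, so these 6 do not stand for the 87.

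The 30 members with at least 50 counts that did not pass the filter are given by their totals. Among the variants these were H2afj (553 counts), H3f3a (417), H1f0 (317) and H2afx (243), the last encoding the histone that is phosphorylated at DNA breaks. The H2A genes were Hist1h2ad (345), Hist1h2ai (329), Hist1h2ag (304), Hist1h2ab (283), Hist1h2af (256), Hist3h2a (238), Hist1h2ac (230), Hist1h2an (188), Hist1h2ah (177), Hist1h2aj (165), Hist2h2aa2 (129), Hist2h2ac (115), Hist1h2ak (112), Hist2h2ab (64) and Hist1h2al (54). The linker genes were Hist1h1c (343), Hist1h1b (187), Hist1h1e (163) and Hist1h1d (50). Few genes of the other families reached 50 counts, namely Hist1h4i (198), Hist1h4d (109), Hist1h2bc (135), Hist1h2be (101), Hist1h3e (98), Hist1h3f (98) and Hist2h3c2 (65).

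Single H2A genes are uncertain because their transcripts are nearly alike. Of the 20 H2A genes, 17 matched another member at 95% identity or more over at least 200 bases, Hist1h2ao with 10 members and Hist1h2ap with 12, and the best match between these 2 reached 100%. Reads of such genes can be assigned to one or the other. Hist1h2ao and Hist1h2ap together held between 22.9% (Day03, 35 H2A counts) and 59.6% (siMtf1, 94 H2A counts) of the H2A counts of a condition, with a median of 47.3% over the 42 conditions. H2afz had a copy outside the members, Gm8203, with 616 counts, and H3f3a had 15 such copies with 229 counts in all.

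Library totals ran from 29656 to 235292 counts with a median of 73279, so that low levels rest on few molecules. The fibroblast label held at Day00. All 10 fibroblast markers, among them Col1a1, Vim and Thy1, had counts there and summed to between 6343 and 8046 CPM, against 0 for the 4 endothelial markers and 124 to 205 CPM for 6 leukocyte markers, of which Ptprc, Csf1r, Cd52 and Tyrobp were at 0. The fibroblast sum was 2494 to 3427 CPM at Day06, 1569 to 1848 in nt, 4556 to 5278 in siWdr5, 2759 to 3545 in siBard1, 2326 to 4032 in siEp300 and 2325 to 3298 in siBrca1, so all 4 of these knockdowns lay above nt. Of the 8 fibroblast markers tested, 5 were called higher in siWdr5, 4 in siBard1 and 2 in siBrca1, where 27.2%, 10.3% and 4.22% of all genes were called, and the part of these differences in the histone results was not tested. The labels do not say whether a replicate is also a separate cell preparation, so p-values measure the spread among these libraries.

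The first question was how histone mRNAs moved over the days of reprogramming. By Day06 H2afz, Hist1h2ao and Hist1h2ap had risen over Day00, while H3f3b was level and no tested member had fallen. The test was an edgeR quasi-likelihood fit over all libraries with the replicate as a block, with p-values adjusted over 3013 genes, and 3 of the 6 tested members passed, in a comparison in which 22.2% of all tested genes did. The calls were close to the threshold: DESeq2 called 0, edgeR with RLE size factors 1 (Hist1h2ao), and edgeR without replicate 3 called 1 (H2afz). Without replicate 2, none of H2afz, Hist1h2ao and Hist1h2ap passed (edgeR adjusted p = 0.0767, 0.0969 and 0.200), and without replicate 1 all 3 did.

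H2afz was at 739, 974 and 753 CPM at Day00 in replicates 1, 2 and 3, and at 1217, 1753 and 995 CPM at Day06. Each Day06 library was above all Day00 libraries. The log2 fold change was 0.65 ± 0.19 (SE, edgeR adjusted p = 0.00659), a 1.57-fold rise. It was not steady over the days. At Day03 H2afz was at 525, 650 and 405 CPM, below every Day00 library, and the fall of 0.67 on the log2 scale (SE 0.22, edgeR adjusted p = 0.0290) was the one call among the members that day, when 10.9% of all tested genes were called. This call was lost under 6 of 8 alternatives, among them leaving out replicate 1, 2 or 3 (edgeR adjusted p = 0.0612, 0.136 and 0.230), although the direction was kept in all 8. At Day05 it had reached 1028, 1792 and 1469 CPM, 0.81 ± 0.19 above Day00 on the log2 scale (edgeR adjusted p = 0.000199).

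Hist1h2ao rose from almost nothing. It had 2, 1 and 1 counts at Day00, or 41.1, 21.2 and 8.28 CPM, and 114, 133 and 206 CPM at Day05. The groups did not overlap, and the rise was 7.93-fold, or 2.99 ± 0.56 on the log2 scale (edgeR adjusted p = 4.17e-06). With so few counts at Day00 the size was loose, 3.78 without replicate 1 and 1.85 without replicate 3. The course was not steady, with 34.2 to 160 CPM at Day01, 45.6 to 106 at Day02, 0 to 26.4 at Day03 and 36.3 to 101 at Day04. At Day06 it was at 59.3, 145 and 75.0 CPM, again above every Day00 library, and the rise of 2.10 ± 0.65 on the log2 scale passed (edgeR adjusted p = 0.0103).

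Hist1h2ap, its nearly identical neighbour, was at 82.1, 0 and 8.28 CPM at Day00 and at 89.0, 90.4 and 75.0 CPM at Day06. Replicate 1 of Day00 lay within the Day06 range and the other Day00 libraries far below it. The log2 fold change was 2.27 ± 0.59 at Day05 (edgeR adjusted p = 0.00103) and 1.74 ± 0.65 at Day06 (edgeR adjusted p = 0.0390). It ran from 1.02 without replicate 3 to 4.24 without replicate 1 at Day05, and from 0.98 to 3.47 at Day06. With replicate 3 left out, neither Hist1h2ao nor Hist1h2ap passed on either day (edgeR adjusted p = 0.0727 and 0.371 at Day05). In Day05 against Day00, 3 of the 6 tested members were called, against 31.9% of all genes.

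H3f3b stayed near its Day00 level of 493, 402 and 389 CPM, with 356, 380 and 498 CPM at Day06. The groups overlapped throughout, and the difference of 0.03 had a 95% interval from -0.43 to 0.50 on the log2 scale, and its sign turned to -0.13 with RLE size factors. For H2afy the Day00 libraries were at 226, 169 and 66.2 CPM and the Day06 libraries at 178, 217 and 300 CPM, overlapping, with 0.93 ± 0.36 (edgeR adjusted p = 0.0502). The change of H2afy ran from -0.10 without replicate 3 to 1.52 without replicate 1, where it passed (edgeR adjusted p = 0.00655). Hist1h2ae was at 20.5, 21.2 and 8.28 CPM at Day00 and at 59.3, 36.1 and 34.1 CPM at Day06, which did not overlap but missed the threshold at 1.44 ± 0.84 (edgeR adjusted p = 0.228).

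Over the days as a whole, H2afz (edgeR adjusted p = 2.47e-12), Hist1h2ao (7.49e-07) and Hist1h2ap (0.000484) differed among Day00 to Day06, 3 of 6 members against 42.5% of all tested genes. No member was called at Day01, Day02 or Day04, when 9.89%, 11.6% and 18.7% of all genes were. At an unadjusted p under 0.05 edgeR gave 2 members at Day01 and 1 on each of the other 2 days, Hist1h2ao each time, with 21.9%, 23.8% and 30.9% of all genes under it, and DESeq2 called 0 on these days. RLE size factors in place of TMM moved the median of all tested genes by -0.21 at Day05 and -0.16 at Day06 on the log2 scale, and the share of calls that were higher from 52.8% to 37.7% and from 48.1% to 34.7%.

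**Figure D2:**
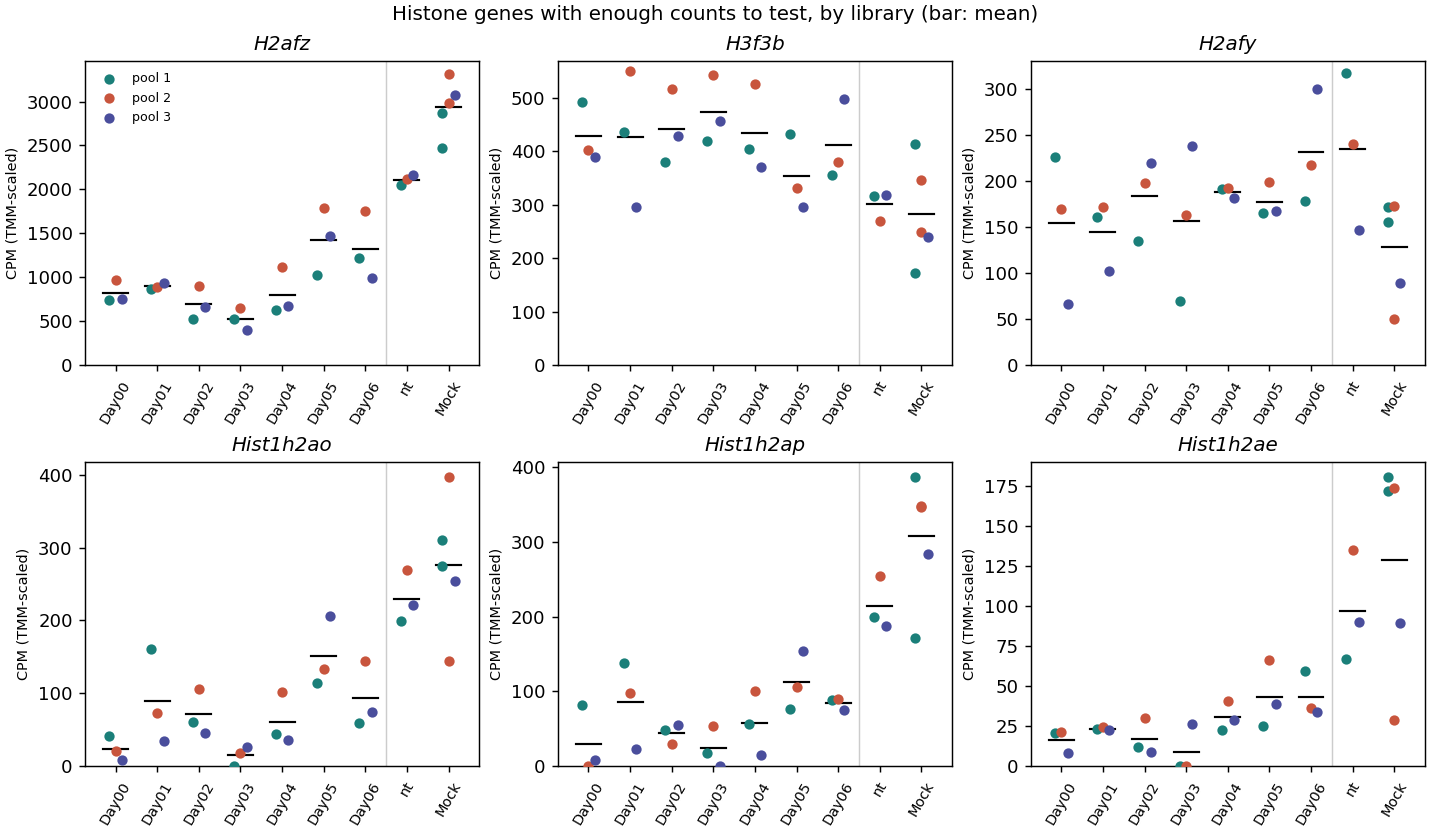
CPM of the 6 histone genes that could be tested (panels), in each library of Day00 to Day06, nt and Mock. Points are libraries coloured by replicate and bars are means. H2afz was lowest at Day03 (405 to 650 CPM), reached 2048 to 2165 CPM in nt and was highest in Mock (2472 to 3315 CPM). Hist1h2ao was at 41.1 CPM or less at Day00 and 200 CPM or more in nt.

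Among the members under the filter, Hist1h1c moved the other way. It encodes the linker histone H1.2 and had 5, 13 and 16 counts at Day00, or 103, 275 and 132 CPM. At Day06 it had 3, 0 and 1 counts, or 44.5, 0 and 6.82 CPM, below every Day00 library. With no filter on low counts it fell by 3.11 on the log2 scale (edgeR adjusted p = 0.000666), and it was called in limma on the deposited log2 values as well (adjusted p = 0.00295). The first of these fits called 1.40% and the second 5.91% of all genes. In the first, H2afz passed at Day06 (edgeR adjusted p = 0.00217) but the rises of Hist1h2ao and Hist1h2ap did not. In limma both of these passed. The pooled level of Hist1h1c was 93.8 CPM at Day01, 50.5 at Day02, 119 at Day03, 73.7 at Day04 and 38.8 at Day05, so the decline was not steady, and Day03 lay close to Day00.

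Other clustered linker genes had no counts at Day00. Hist1h1b, Hist1h1e and Hist1h1d had 0 counts at Day00 in all 3 libraries, 3, 5 and 1 at Day06 and 9, 7 and 3 in nt, too few to test. The sum of the 6 clustered H1 genes was 103 to 275 CPM at Day00 and 18.1 to 61.4 CPM at Day06, which did not overlap.

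A few other untested members had more counts at Day00 than at Day06. Hist2h3c2, an H3 gene, had 12 counts at Day00, 7 at Day03, 0 at Day05 and 3 at Day06, and was called in the fit with no filter at Day05 (log2 fold change -4.77, edgeR adjusted p = 0.0143, with 2.06% of genes called). The H2B gene Hist1h2bc had 7 counts at Day00, 10 at Day02, 9 at Day03 and 0 at Day06, and Hist1h2be had 7 at Day00 and 3 at Day06. The H4 gene Hist1h4i had 9 counts at Day00 and 7 at Day06, or 41.5 and 26.0 CPM pooled. These genes were picked after their values were seen. Without the filter, Hist1h1c and Hist1h2ai also passed over the days as a whole (3.15% of genes called).

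Genes of the clusters moved in opposite directions, and their sum did not show it. The Hist sum was 575, 572 and 488 CPM at Day00 and 371, 578 and 614 CPM at Day06, which overlap, with a log2 ratio of means of -0.06. Within it, the H2A genes made 18.5% to 46.4% of the sum at Day00, 56.3% to 72.2% at Day01, 41.5% to 72.4% at Day02, 28.6% to 30.0% at Day03, 47.4% to 61.3% at Day04 and 67.8% to 90.6% at Day06. The share was thus higher at Day01 than at Day00, and low again at Day03. The shares at Day00 and Day03 were below all of those at Day05, Day06 and nt, and most of the H2A counts were on genes with near-identical copies. The H2B sum went the other way, from 57.9 to 144 CPM at Day00 to between 0 and 18.1 CPM at Day06. The sums were chosen with results known and carry no test.

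**Figure D3:**
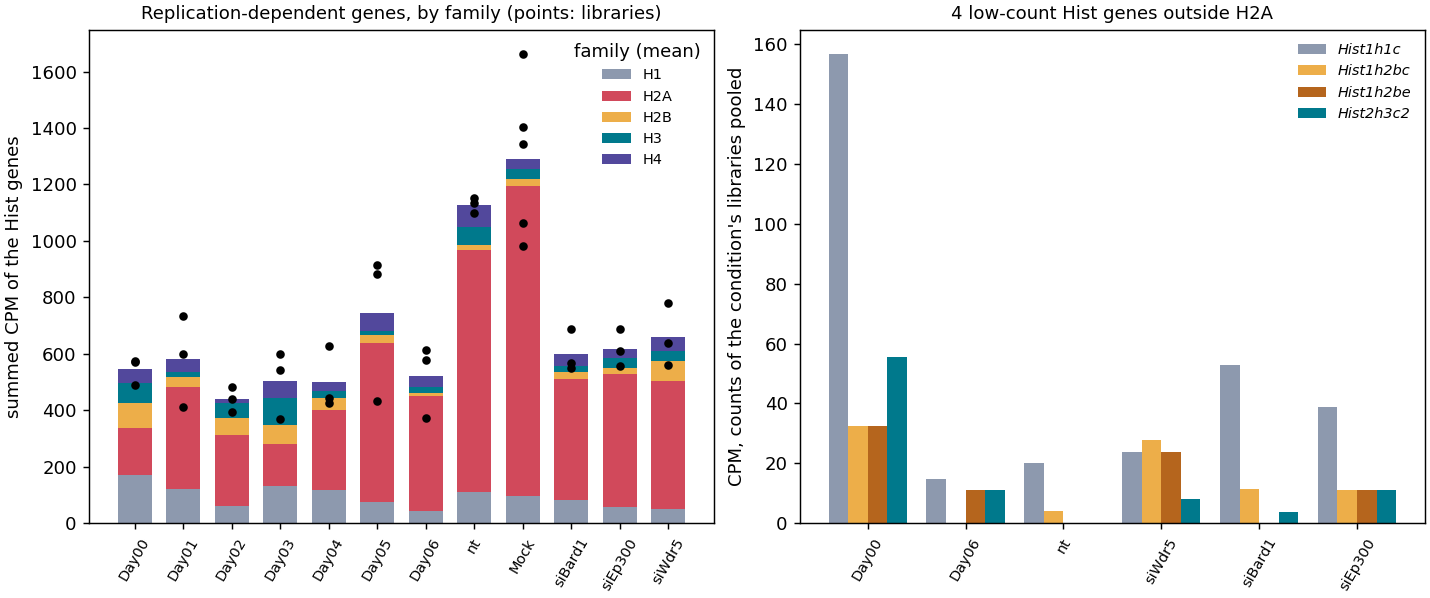
Left, summed CPM of the 69 Hist genes in each condition, stacked by family (means), with the sum of each library as a point. Right, CPM of 4 members picked after their values were seen, from the pooled counts of each condition. The sum at Day06 (371 to 614 CPM) overlapped that at Day00 (488 to 575 CPM), while its H2A part was 106 to 267 CPM at Day00 and 282 to 524 CPM at Day06, and Hist1h1c had 34 counts and then 4.

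The variant sum was 1581, 1736 and 1324 CPM at Day00 and 1914, 2639 and 2025 CPM at Day06, and the groups did not overlap. Its log2 ratio of means was 0.50, and 0.26 without H2afz. The ratio of the Hist to the variant sum was 0.329 to 0.369 at Day00 and 0.194 to 0.303 at Day06, lower in every Day06 library. Among the variants that could not be tested, H2afj had 10 counts at Day00 and 24 at Day06, H3f3a 3 and 9, H1f0 3 and 9, and H2afx 6 and 13.

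The next comparison was of nt with untransfected cells, both harvested at day 6. The transfected cells had also spent a day longer in culture before induction, which cannot be told apart from the transfection here. The 3 genes that rose over the days were higher still in nt. H2afz was at 2048, 2124 and 2165 CPM, above every Day06 library, by 0.73 ± 0.17 on the log2 scale (edgeR adjusted p = 0.000391). Hist1h2ao was at 200, 269 and 221 CPM (1.37 ± 0.37, edgeR adjusted p = 0.00275) and Hist1h2ap at 200, 254 and 188 CPM (1.31 ± 0.39, edgeR adjusted p = 0.00726). Neither overlapped Day06.

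H3f3b was lower in nt, with 316, 269 and 319 CPM against at least 356 in Day06, but did not pass (log2 fold change -0.50 ± 0.24, edgeR adjusted p = 0.115). Hist1h2ae was at 66.6, 135 and 89.9 CPM, above Day06, and did not pass either (1.17 ± 0.54, edgeR adjusted p = 0.0963). H2afy overlapped Day06, with a difference of -0.19 ± 0.31. In all, 3 of 6 members were called in nt against Day06, where 26.6% of all tested genes were. With replicate 3 left out, 0 were called, H2afz then reaching an edgeR adjusted p of 0.105. In limma on the deposited log2 values all 3 calls were lost, and with no low-count filter those of Hist1h2ao and Hist1h2ap. The median of all genes moved by -0.14 with RLE size factors, and the share of calls that were higher from 58.6% to 44.2%.

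The Hist sum was 1099, 1152 and 1136 CPM in nt, far above the untransfected Day06 libraries and above every library of Day00 to Day05 as well. The variant sum was 2931, 2812 and 2859 CPM, also above Day06. Without H2afz the variant sum was lower in nt than at Day06 (log2 ratio -0.21).

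Mock, the transfection with no siRNA, did not differ from nt for any member in the main test. H2afz was at 2472 to 3315 CPM (median 2979) in the 5 Mock libraries, all above nt, with 0.47 ± 0.15 (edgeR adjusted p = 0.0757). H2afy was at 49.6 to 173 CPM (median 155), overlapping nt, with -0.88 ± 0.37 (edgeR adjusted p = 0.276). In edgeR 0 of 6 members were called and 2, these, were under an unadjusted p of 0.05 (11.6% of all genes were), when 1.56% of all genes were called. DESeq2 called H2afz (adjusted p = 0.0196, with 3.12% of genes called), as did edgeR with RLE size factors (adjusted p = 0.0338, with 1.66% called).

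The last question was which knockdowns moved the histone genes away from nt. Over nt and the 33 siRNA conditions together, 5 of the 6 members differed (edgeR adjusted p from 6.54e-22 for H2afz to 0.000202 for H3f3b), all but H2afy, against 44.8% of all tested genes. With no filter on low counts Hist1h2be passed too, when 4.01% of genes did. In the comparisons of each siRNA with nt, which share their control libraries, 9 of 198 pairs of a member and an siRNA were called, against 2.57% of all 99429 pairs. They lay in 4 conditions, siWdr5, siBard1, siEp300 and siNcor1. Wdr5 is a shared subunit of the complexes that methylate H3 at lysine 4, Bard1 and Brca1 form a ubiquitin ligase that acts in DNA repair and on H2A, Ep300 acetylates histones, and Ncor1 is a corepressor that recruits histone deacetylases.

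siWdr5 changed 4 of the 6 members, in a comparison that called 27.2% of all genes. H2afz was at 1215, 853 and 911 CPM, all below nt, and fell by 1.09 on the log2 scale (SE 0.17, edgeR adjusted p = 1.01e-07), to 0.471 times the nt level. It was the lowest mean of H2afz among the 33 siRNAs, whose means ran from 993 to 3076 CPM, and it was close to the Day00 libraries. H3f3b went up instead, to 740, 583 and 446 CPM, all above nt, with 0.90 ± 0.24 (edgeR adjusted p = 0.00160). This was the highest of the 33 means, although in 11 of the 33 siRNAs every H3f3b library lay above nt, and in 2 below. The call of H3f3b was lost under 4 of 9 alternatives: without replicate 1 (edgeR adjusted p = 0.0702), without replicate 2 (0.0551), with no low-count filter (0.0815) and in limma (0.158).

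The H2A pair also fell in siWdr5. Hist1h2ao was at 119, 142 and 75.9 CPM, below nt, with -1.09 ± 0.36 (edgeR adjusted p = 0.0134), and Hist1h2ap at 145, 71.1 and 47.5 CPM, below nt, with -1.32 ± 0.39 (edgeR adjusted p = 0.00678). Hist1h2ae, at 52.8, 56.9 and 19.0 CPM, was below nt too but did not pass (-1.26 ± 0.55, edgeR adjusted p = 0.0731). H2afy overlapped nt (-0.29 ± 0.34). RLE size factors moved the median of all genes by 0.17 in this comparison and the share of higher calls from 44.7% to 60.9%. Without replicate 3, neither Hist1h2ao nor Hist1h2ap passed (edgeR adjusted p = 0.239 and 0.152). Each was lost under 4 of 9 alternatives, both also with no low-count filter and in limma, Hist1h2ao with DESeq2 and Hist1h2ap without replicate 2.

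In siBard1, 2 H2A genes fell and H2afz did not pass. Hist1h2ao was at 192, 103 and 62.5 CPM, below every nt library, with -1.10 ± 0.36 (edgeR adjusted p = 0.0264). Hist1h2ae was at 16.0, 68.5 and 6.94 CPM, where replicate 2 overlapped nt, with -1.96 ± 0.61 (edgeR adjusted p = 0.0208). Over the alternatives its change ran from -2.88 to -1.27. H2afz was at 2252, 2587 and 2346 CPM, all slightly above nt, as in 14 of the 33 siRNAs. Its change was 0.18 with a 95% interval from -0.14 to 0.49 on the log2 scale. Hist1h2ap (-0.95 ± 0.37, edgeR adjusted p = 0.0856) and H3f3b (0.64 ± 0.24, edgeR adjusted p = 0.0739) did not pass, although neither overlapped nt. These 2 of 6 stood against 10.3% of all genes, and without replicate 3 neither call was kept (edgeR adjusted p = 0.497 and 0.427). Hist1h2ao was lost under 6 of 9 alternatives, also without replicate 2 and with DESeq2, and Hist1h2ae under 5 of 9, also without replicate 1 and with DESeq2.

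Brca1 is the partner of Bard1, and siBrca1 called 0 of the 6 members in edgeR, where 4.22% of all genes were called. There, 0 were under an unadjusted p of 0.05, as 15.3% of all genes were, and DESeq2 called 0 of the 5 it gave an adjusted p. Hist1h2ao was at 310, 274 and 130 CPM, spread on both sides of nt, and its 95% interval ran from -0.73 to 0.58. H2afz was at 3058, 2507 and 1743 CPM, likewise on both sides of nt. The siBrca1 libraries held 53292, 47592 and 91364 counts, the first 2 below the median depth.

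In siEp300, 2 H2A genes fell as well. Hist1h2ao was at 100, 113 and 63.3 CPM, below nt, with -1.42 ± 0.35 (edgeR adjusted p = 0.00384), the lowest mean of this gene among the 33 siRNAs. Hist1h2ae was at 28.6, 42.6 and 18.1 CPM, below nt, with -1.81 ± 0.56 (edgeR adjusted p = 0.0321), and Hist1h2ap, at 100, 113 and 90.5 CPM, missed the threshold (-1.05 ± 0.36, edgeR adjusted p = 0.0586). H2afz was at 1501, 1844 and 1570 CPM, all below nt, and did not pass (-0.38 ± 0.16, edgeR adjusted p = 0.150). Against nt plus Mock, H2afz (-0.61, edgeR adjusted p = 0.000538) and Hist1h2ap (-1.30, edgeR adjusted p = 0.000856) both passed. The background of this comparison was 5.68%, and the share of its calls that were higher went from 53.2% to 69.0% with RLE size factors. The call of Hist1h2ao was lost under 3 of 9 alternatives, among them leaving out replicate 3 (edgeR adjusted p = 0.249), and that of Hist1h2ae under 7 of 9, among them leaving out replicate 1, 2 or 3 and DESeq2.

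siNcor1 had the highest H2afz mean, with 3017, 3098 and 3113 CPM, all above nt. Every H2afz library lay above nt in 14 of the 33 siRNAs and below nt in 5. The log2 fold change in siNcor1 was 0.54 ± 0.16 (edgeR adjusted p = 0.0249), the one call of 6 where 4.45% of genes were called. Of the 5 Mock libraries, at 2472 to 3315 CPM, 3 lay below every siNcor1 library. Against nt plus Mock siNcor1 no longer passed (edgeR adjusted p = 0.225). Nor did it pass without replicate 1, 2 or 3 (edgeR adjusted p = 0.0697, 0.189 and 0.0975).

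**Figure D4:**
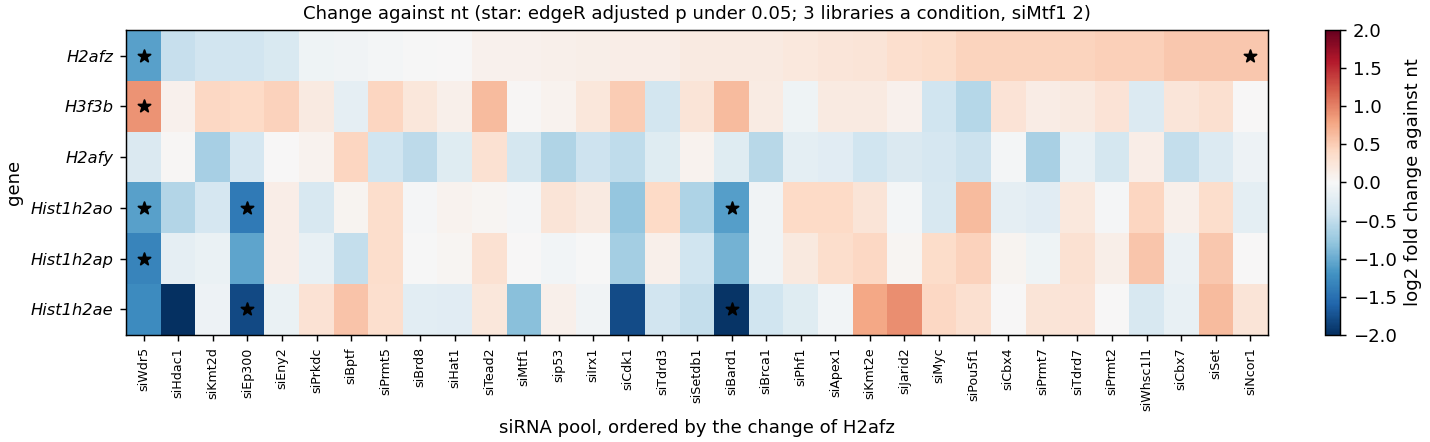
Log2 fold change against nt of the 6 tested histone genes (rows) in the 33 siRNA conditions (columns, ordered by H2afz); colour gives the change, ending at 2 and -2, and a star an edgeR adjusted p under 0.05. The 9 stars lie in siWdr5 (4), siBard1 (2), siEp300 (2) and siNcor1 (1).

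Whether siWdr5 differed from the BRCA1 and BARD1 knockdowns was asked in direct comparisons that were added after the data were seen. H2afz was lower in siWdr5 than in siBard1 by 1.26 ± 0.17 on the log2 scale (edgeR adjusted p = 9.57e-10), the one of 6 members called where 8.36% of genes were. For Hist1h2ao the difference was 0.01 with a 95% interval from -0.76 to 0.78, wide enough for a change of either sign. Against siBrca1, 3 of 6 were called with 9.99% of genes: H2afz (-1.27 ± 0.18, edgeR adjusted p = 3.71e-09), Hist1h2ap (-1.25 ± 0.43, edgeR adjusted p = 0.0396) and H3f3b (0.75 ± 0.25, edgeR adjusted p = 0.0340).

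The sums hold the same counts as the calls above, with 45.0% of Hist counts on the 3 tested Hist genes and 73.6% of variant counts on H2afz. Low sums in the same conditions are therefore no separate evidence. The lowest Hist sums of the 33 siRNAs were those of siBard1 (548 to 687 CPM, mean 600.2), siEp300 (557 to 686, mean 618) and siWdr5 (560 to 779, mean 660), which lie close together and all below nt. The highest were siPou5f1 (mean 1522), siKmt2e (1498) and siWhsc1l1 (1494), whose libraries ran from 1171 to 1790 CPM, and the means of the 33 had a median of 1162 CPM with a median SD of 181. In the middle of this order neighbours differed by far less than that SD.

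Of the variant sums, siWdr5 was lowest (1680 to 2285 CPM, mean 1914), then siHdac1 (mean 2153) and siKmt2d (2363), and siNcor1 was highest (3839). Without H2afz the variant sum of siWdr5 was above that of nt, by 0.29 as a log2 ratio. The siEp300 variant sum was 2203 to 2567 CPM, also below every nt library, but without H2afz its mean was level with that of nt. The variant sum of siBard1 was 3062 to 3530 CPM, above nt. The Hist to variant ratio was 0.375 to 0.410 in nt, 0.333 to 0.360 in siWdr5, below every nt library, and 0.160 to 0.219 in siBard1, the lowest mean of the 33. Without the most abundant member of each sum, the log2 ratio of siWdr5 to nt went from -0.19 to -1.02. The H2A share of the Hist sum was lowest in siWdr5 (64.4% to 71.2%, against 68.2% to 79.9% in nt), and its H2B sum of 39.6, 85.3 and 85.4 CPM, highest of the 33 means, was above the 0, 29.9 and 24.5 CPM of nt.

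**Figure D5:**
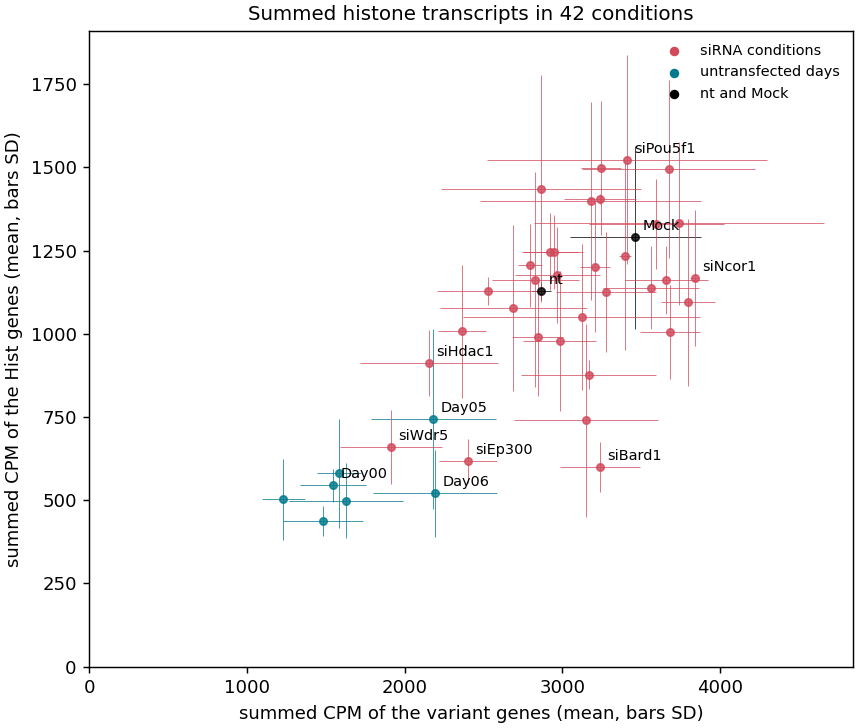
Summed CPM of the 69 Hist genes against summed CPM of the 17 variant genes; each point is the mean of a condition and bars are SD over its libraries. The untransfected days have Hist sums of at most 743 CPM (mean of Day05), nt lies at 1129 and 2867 CPM, siWdr5 and siEp300 lie below nt in both sums and siBard1 in the Hist sum only.

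Genes that handle histones and the cell cycle were read from lists chosen with earlier results of these data known, and are given by counts beside the median of all tested genes. Of 38 histone chaperones and assembly factors 20 could be tested. At Day06, 6 rose and 0 fell, where 22.2% of all genes were called, with a median log2 change of 0.56 against 0.05 for all genes. They included Npm1 (1.35 ± 0.17), a nucleolar histone chaperone, Set (0.91 ± 0.21), which shields histone tails from acetylation, and Mcm2 (2.07 ± 0.52), the subunit of the replicative helicase that binds H3 and H4. In nt against Day06, 4 were higher and 4 lower, where 26.6% of all genes were called, with Npm1 (1.63 ± 0.15) and Hat1 (1.16 ± 0.33), which acetylates new H4, on one side and Tonsl (-1.81 ± 0.53) and Mcm2 (-1.58 ± 0.47) on the other.

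In siWdr5, 5 of the 20 fell and 0 rose, a share no higher than the 27.2% of all genes called, with a median of -0.10 against 0.0034 for all genes. The fall was 1.49 on the log2 scale for Npm1, 1.97 for Hat1 and 1.17 for Dek, a chromatin protein that can act as an H3.3 chaperone. In siBard1, 3 of 20 fell and 0 rose (Npm1, Dek and the acidic nuclear protein Anp32a), where 10.3% of all genes were called, and in siBrca1, 1 of 20 fell (Dek), where 4.22% were.

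Of 20 genes of histone mRNA transcription and 3′ end processing 7 could be tested. Eri1, the exonuclease that trims histone mRNA ends, rose by Day06 (1.69 ± 0.57, edgeR adjusted p = 0.0192) and was lower in nt than at Day06 (-1.42 ± 0.52), as was Srrt (-1.13 ± 0.43). These calls, 1 of 7 at Day06 and 2 of 7 in nt, stood against 22.2% and 26.6% of all genes. The median log2 change of the list was 0.22 at Day06 and -0.088 in nt against Day06, with 0.048 and -0.013 for all genes.

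Of 53 S phase genes 16 could be tested. The sum of the list, computed for some of the conditions, was 2293 to 2422 CPM at Day00, 1205 to 1572 at Day03, 2622 to 3186 at Day05, 2952 to 3796 at Day06 and 3333 to 4038 in nt. At Day03 it was below Day00 in every library, as H2afz was, whereas the H2A sum overlapped (105 to 176 CPM at Day03). At Day06, Dut (1.28 ± 0.28), which removes dUTP, and Mcm2 rose and 0 fell, 2 of 16 where 22.2% of all genes were called, with a list median of 0.54. In nt against Day06, 2 were higher and 3 lower, Hells (1.47 ± 0.39) and Chek1 (1.70 ± 0.53) against Mcm2, Uhrf1 and Rfc2, 5 of 16 where 26.6% of all genes were called. In siWdr5 the sum was 2544 to 3024 CPM and 3 fell, Dut (-1.20 ± 0.24), Chek1 and the sliding clamp Pcna, 3 of 16 where 27.2% of all genes were called, with a list median of -0.25. In siBard1 it was 2423 to 3084 CPM and 1 of 16 fell, Dut, which was also the one of 16 that fell in siBrca1, where 10.3% and 4.22% of all genes were called. The sum of the list was 2670 to 3135 CPM in siEp300, also below every nt library. It overlapped nt in siBrca1 (2297 to 3782 CPM) and in siNcor1 (3263 to 3935 CPM). The part of S phase cells in the histone results was not tested.

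Of 35 genes of G2 and mitosis 22 could be tested. At Day06, Ube2c, Birc5 and Ccnb1 rose and 0 fell, 3 of 22 where 22.2% of all genes were called, with a list median of 0.025. In nt against Day06, 2 were higher, Hmgb2 (2.04 ± 0.39) and Smc2, and 3 lower, 5 of 22 where 26.6% of all genes were called. In siWdr5, Hmgb2 (-1.67 ± 0.37) and Smc2 fell and Cenpe rose, 3 of 22 where 27.2% of all genes were called, with a list median of 0.18. In siBard1, 5 fell, among them Kif11 (-3.04 ± 0.74), the mitotic kinesin, and Smc2 (-1.39 ± 0.26), 5 of 22 where 10.3% of all genes were called, with a list median of -0.26. In siBrca1, 1 of 22 fell (Hmgb2), where 4.22% of all genes were called. Of a list of 5 genes labelled quiescence and cell cycle exit, which also holds the cyclin gene Ccnd2, 3 could be tested. At Day06, Ccnd2 rose (1.14 ± 0.17) and 0 fell, 1 of 3 where 22.2% of all genes were called. All 3, Ccnd2, Cdkn1a and Gas1, were lower in nt than at Day06 and higher in siWdr5 and siBard1 than in nt. In these comparisons 26.6%, 27.2% and 10.3% of all genes were called. In siBrca1, Ccnd2 and Cdkn1a were higher, 2 of 3 where 4.22% of all genes were called. The sum of the list was 1667 to 2298 CPM in nt and 3611 to 5032 CPM in siEp300, and siNcor1 overlapped nt (1441 to 2161 CPM).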

How the data were processed

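Bulk RNA was measured by CEL-Seq2. The authors aligned reads to mm10 with Bowtie2, counted UMIs with the CEL-Seq2 pipeline on GENCODE annotation, and deposited a table of counts for 129 libraries and a table of log2 CPM values with batch effects regressed out, which has 10568 rows. Conditions were read from the column names of these tables, since the 3 labelled samples are the 3 sequenced replicates. A library of siMtf1 (7981 counts) and one of Mock (6403 counts), which the authors' log2 table does not hold, were left out, which gave 127 libraries. Counts were tested with edgeR 4.0.16 (R 4.3.3), using TMM scaling, filterByExpr by condition (3013 genes kept), condition and replicate as terms, a quasi-likelihood test and Benjamini-Hochberg adjustment with a threshold of 0.05. The fit had 83 residual degrees of freedom. Alternatives were RLE size factors, DESeq2 1.42.0, no low-count filter, no replicate block, leaving out a replicate, nt with Mock as the control, and limma 3.58.1 on the deposited log2 values. The replicate number, which the labels give to each sequenced set of libraries, was kept as a block in the main fit. Deviations of libraries with the same replicate number had a median correlation of 0.0800, against -0.0527 for different numbers, and 126 of 127 libraries correlated best with their own number. Near-identical transcripts were found with blastn 2.17.0. The members, gene lists and genes named were chosen with earlier results of these data known. Named members were the 6 tested ones, members with at least 50 counts and those at 0. Sums over members carry no test.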

Additional observations from a re-analysis of the deposited data

How the results depend on the processing

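Of the 19 called results for single members, 0 changed direction, and H2afz at Day05 and in siWdr5 passed under every alternative run, while the other 17 missed the threshold under at least 1. The alternatives do not all test the same members: 78 without the low-count filter, 35 with limma, 9 without replicate 1 or 2 and 6 otherwise, or fewer where DESeq2 gave no adjusted p, so counts of calls can include other genes. The number of members called at Day06, 3, was 0 with DESeq2, 1 with RLE size factors and 1 to 5 when a replicate was left out; the 1 without replicate 2 was Hist1h1c, which fell, and the 5 without replicate 1 include it and H2afy. Over Day01 to Day05 it was 4, 11 with limma on the deposited log2 values, which include falls of Hist1h1c and Hist2h3c2 at Day05, and as low as 1 without a replicate. For any difference among the days it was 3, 5 with no low-count filter and 7 with limma. For nt against Day06 it was 3, 1 with no filter, 0 with limma and as low as 0 without a replicate. For Mock it was 0, and 1 with DESeq2 and with RLE size factors. Over the 33 siRNAs it was 9, 2 with no filter, 3 with limma, 18 against nt plus Mock and 3 to 5 without a replicate, while the calls over all genes went from 2557 to 1220, 413, 3363 and 905 to 1649 in these fits, and for any difference among them 5, or 3 with limma. Without the replicate block, the calls of H2afz at Day03, Hist1h2ap at Day06, Hist1h2ao in siBard1, Hist1h2ae in siEp300 and H2afz in siNcor1 were lost. The Day06 change of H3f3b turned to -0.13 with DESeq2, -0.13 with RLE, -0.0098 without the replicate block, -0.084 with limma, and ran from -0.37 to 0.27 when a replicate was left out. H2afy, with a replicate left out, ran from -0.10 to 1.52 at Day06 and from -0.56 to 0.47 in nt against Day06, the sign turning without replicate 3. Against nt plus Mock, H2afz in siBard1 turned to -0.062 and H2afy in siWdr5 to 0.16. The log2 ratio of the Hist sum at Day06 to Day00 turned from -0.06 to 0.0024 on unscaled totals and ran from -0.27 to 0.17 with a replicate left out, turning without replicate 1. Without H2afz, the variant sum moved to 0.26 for Day06 to Day00, -0.21 for nt to Day06, 0.013 for siEp300 and 0.29 for siWdr5. With H2afz kept, the log2 ratio of the variant sum of nt to Day06 was 0.092 on unscaled totals. Without the most abundant member of each sum, the ratio of the sums moved from 0.72 to 1.31 for nt to Day06 and from -0.19 to -1.02 for siWdr5. The cause of these changes was not tested. Most members had too few counts at this depth for a test.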
